A study of Mus musculus with 12 samples.

Results

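The genes described here form one signalling module: the C-type lectin receptors *Clec7a* (Dectin-1), *Clec4d* (MCL), *Clec4e* (Mincle) and *Clec4n* (Dectin-2), the kinases *Syk* and *Prkcd*, and the complex of *Card9*, *Bcl10* and *Malt1*. They were chosen by symbol, 9 genes of 24813 in the count table, which lists 16 of its 41388 transcripts for them. *Card9* was picked because earlier results of the same libraries had shown it to change, so its values are a description and carry no test. RNA-seq was performed on 12 libraries of female germline stem cells (FGSCs), germ cells isolated from the mouse ovary that self-renew in culture. The libraries fall into 4 groups of 3: a *Stella* knockout line (KO), its control (KO-con), a *Stella* overexpression line (Over) and its control (Over-con). *Stella*, listed as Dppa3, encodes a maternal-effect protein of germ cells and early embryos.

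All lines were C57BL/6 FGSCs at passages over 20, kept on STO fibroblast feeders that mitomycin C had stopped from dividing, with LIF, EGF, bFGF and GDNF in the medium. KO was made with CRISPR/Cas9 and *Stella* guides carried by lentivirus, followed by single-cell cloning, so KO is 1 clone. Over was made with a *Stella* lentivirus and puromycin selection, and Over-con carries the empty lentiviral vector. The labels call KO-con the knockout control and do not describe it further. Nothing in the labels or methods says that the 3 libraries of a group came from separate cultures, so p-values measure the spread between these libraries, which may be technical. As a check of the labels, *Stella* had 32.1, 28.4 and 30.5 counts per 1000000 counts (CPM) in the Over libraries and 0 counts in the other 9, KO-con and Over-con included, so the counts cannot check the knockout.

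Library totals lay between 5611846 and 12866545 counts, where 3 counts, the smallest amount read as a level, correspond to 0.233 to 0.535 CPM. Among 6 germline markers, *Ifitm3*, which many cell types express, had 667 to 1711 counts per library, *Prdm1* had 2 to 21, and *Ddx4*, *Dazl* and *Pou5f1* had at most 1. The last 3 have more than 1 listed transcript, which limits what a low count means, as described for the lectins below. Of 8 fibroblast markers, which the feeders would carry, 6 were above 3 counts in every library. Of 10 macrophage and monocyte markers 2 were above 3 counts in every library, *Cd68* and *Cd14*, while *C1qa* and *C1qb* were at 0. Of 11 mast cell markers 3 were, *Cpa3* far above *Mcpt2* and *Hdc*, while *Fcer1a* and *Tpsab1* were at 0. Of 8 dendritic cell markers 1 was, *Zbtb46*, while *H2-Aa* had at most 1 count. Of 8 neutrophil markers 1 was, *Cxcr2*, while *S100a8* and *Mpo* had at most 2 counts.

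In myeloid cells, these lectins bind sugars and glycolipids of fungi and mycobacteria, and Mincle also binds a protein released by dying cells. Dectin-1 recruits SYK through its own tail, whereas Mincle, MCL and Dectin-2 signal through the adaptor FCER1G. SYK activates protein kinase C delta, the product of *Prkcd*, which phosphorylates CARD9. CARD9 then nucleates filaments of BCL10 bound to the paracaspase MALT1, and this complex activates IKK and NF-kappa B, which switches on cytokine and chemokine genes. CARD9 is best known from myeloid cells, where its loss leads to fungal infections, and the related scaffold CARD10 takes its place in epithelial cells.

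The letters upstream of the start site are shown for the 3 members that had a single listed transcript, since these carried most of the members' counts. Each window is the 250 bases before the RefSeq start (GRCm38.p6 table), matched exactly once in mm9, and printed 5′ to 3′ on the gene's strand. The windows are chr2:26216430-26216679 on the minus strand for *Card9*, chr3:145586976-145587225 on the plus strand for *Bcl10* and chr6:123239890-123240139 on the minus strand for *Clec4e*. Capitals mark matches, on either strand, to the ETS motif AGGAAGT or the C/EBP motif TTNCNNAA.
Card9: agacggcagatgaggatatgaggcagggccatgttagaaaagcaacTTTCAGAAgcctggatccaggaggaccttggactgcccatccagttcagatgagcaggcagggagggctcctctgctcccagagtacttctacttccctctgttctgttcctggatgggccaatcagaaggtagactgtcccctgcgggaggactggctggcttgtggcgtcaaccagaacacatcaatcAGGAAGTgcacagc
Bcl10: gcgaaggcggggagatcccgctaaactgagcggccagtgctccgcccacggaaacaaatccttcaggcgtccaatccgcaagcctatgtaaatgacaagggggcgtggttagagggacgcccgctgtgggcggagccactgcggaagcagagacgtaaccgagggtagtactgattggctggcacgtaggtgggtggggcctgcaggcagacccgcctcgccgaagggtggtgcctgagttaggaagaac
Clec4e: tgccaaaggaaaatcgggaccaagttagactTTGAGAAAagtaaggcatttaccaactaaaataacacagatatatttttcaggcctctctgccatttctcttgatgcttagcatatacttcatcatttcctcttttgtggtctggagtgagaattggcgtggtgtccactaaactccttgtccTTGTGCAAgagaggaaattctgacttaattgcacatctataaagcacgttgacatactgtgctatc

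ETS factors, such as PU.1, and C/EBP factors bind many promoters of myeloid genes. The *Card9* window held 1 ETS match, which starts 14 bases before the transcript start, and 1 C/EBP match 204 bases before it. The *Clec4e* window held 2 C/EBP matches, 219 and 66 bases before the start, and the *Bcl10* window held none of the motifs searched. Of 27025 mouse promoter windows of this length, 7.8% held the ETS match and 36.9% the C/EBP match. The NF-kappa B consensus (0.337% of windows) and the GATA motif AGATAA (10.3%) were found in none of the 3. The motifs overlap each other nowhere in these windows. These matches describe letters and do not show that a factor is bound.

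The study measured *Card9* by qRT-PCR as well, and its primers show which piece of the transcript that assay reads.
Card9 forward: cacaccctatctacgccagtg
Card9 reverse: gtgactttccggtataactgagg
The forward primer lies at chr2:26214958-26214978 in exon 2 and the reverse primer at chr2:26214372-26214394 in exon 3 of the 13 exons of the *Card9* transcript ENSMUST00000028294.6 (mm9), and they span 195 bases of the mature transcript. The product thus crosses an intron and reads the 5′ part of the transcript. The qRT-PCR values were not used here.

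On mm9, *Card9* occupies 26207696 to 26216438 of chromosome 2 (minus strand). *Bcl10* occupies 145587322 to 145597247 of chromosome 3 (plus strand) and *Malt1* 65590617 to 65638477 of chromosome 18 (plus strand). *Syk* occupies 52678542 to 52744161 of chromosome 13 (plus strand) and *Prkcd* 31408542 to 31439396 of chromosome 14 (minus strand). The 4 lectin genes share chromosome 6 with *Stella*. *Clec4n*, *Clec4d* and *Clec4e* are neighbours 599.6, 631.8 and 651.5 kb from it, and *Clec7a* lies 6831 kb from it. *Card9* is overlapped on the opposite strand by the noncoding gene *Gm13562*, over 8274 bases, of which 87 are exonic in both. The library kit keeps strand, but the strand setting of the counting is not given in the sources used here, so reads of the pair may not be told apart.

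*Card9*, *Bcl10* and *Clec4e* were the well-measured members, with 5550, 8032 and 3681 counts over the 12 libraries. *Prkcd* followed with 548 and *Syk* with 313, at most 89 and 37 in a library. *Malt1* had 26 counts in all, at most 5 in a library, *Clec4d* and *Clec4n* had 1 each, and *Clec7a* had 0, which allows up to 3 counts per library. These low counts cannot be read as absence, because the 6 members other than *Card9*, *Bcl10* and *Clec4e* are listed with 2 or 3 transcripts each. In the whole table, the 7190 protein-coding genes with 2 or more listed transcripts held 3.42% of the protein-coding counts, and 52.9% of them had at most 3 counts in every library. The 13456 genes with 1 listed transcript held 96.6% of the counts, and 39.4% of them were that low. How reads shared between transcripts were counted is not given in the sources used here. Only levels of members with 1 listed transcript are therefore set against each other. Where a gene of a pathway list is called the highest below, this holds for the counts as listed. Such lists also contain genes with several listed transcripts.

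*Clec4e*, which encodes Mincle, was the only lectin member with more than 1 count. It had 19.9, 13.1 and 33.6 CPM in KO and 13.9, 32.0 and 19.5 CPM in KO-con. In Over it had 33.5, 31.3 and 37.6 CPM, and in Over-con 60.1, 40.8 and 38.1 CPM. KO and KO-con overlapped almost fully, and every Over-con library stood above every Over library, the closest pair being 38.1 and 37.6. The spread was wide in KO (22.2 ± 10.4 CPM, SD), KO-con (21.8 ± 9.30) and Over-con (mean 46.3) and narrow in Over (34.1 ± 3.21). *Bcl10*, measured in the same libraries, had SDs of 2.10 to 5.14 CPM about higher means.

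KO and KO-con did not differ in *Clec4e* beyond this spread, with a log2 fold change of 0.02 ± 0.29 (SE, n = 3 per group, edgeR adjusted p = 0.975) and a 95% interval of -0.59 to 0.63. Over was lower than Over-con by a log2 fold change of -0.45 ± 0.14, which missed the threshold after adjustment (edgeR adjusted p = 0.151, unadjusted p = 0.00646). This value turned on single libraries, since it was -0.20 (adjusted p = 0.604) without Over-con replicate 1 and -0.59 (adjusted p = 0.00283) without Over-con replicate 3. The clear difference was between the controls: KO-con was lower than Over-con by a log2 fold change of -1.07 ± 0.21 (edgeR adjusted p = 8.65e-04), and no KO-con library reached an Over-con library. DESeq2 gave -1.08 for it with an adjusted p of 0.0533. The direction of *Clec4e* therefore depended on the control. Against Over-con, KO was lower (log2 fold change -1.06, edgeR adjusted p = 0.0202), and against KO-con, Over was higher (0.62, edgeR adjusted p = 0.00650). The fibroblast markers summed to 970.6 to 1143 CPM in KO-con and 1385 to 1573 in Over-con, and the mast cell markers to 362.2 to 411.2 and 753.7 to 876. Their part in the *Clec4e* difference was not tested. In bulk libraries, fewer cells of a type and less RNA per cell cannot be told apart.

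*Syk*, the kinase that docks on phosphorylated receptor or adaptor tails, was counted on the transcript NM_011518. It had 1.84, 2.78 and 2.63 CPM in KO, 3.41, 3.31 and 3.39 in KO-con, 2.50, 2.53 and 2.14 in Over, and 2.36, 1.76 and 2.13 in Over-con. The 3 KO-con libraries stood above the other 9. The differences did not pass the test at this depth. The log2 fold change was -0.45 ± 0.26 for KO against KO-con (edgeR adjusted p = 0.303) and 0.67 ± 0.28 for KO-con against Over-con (edgeR adjusted p = 0.109). Over and Over-con differed by 0.18 ± 0.27 (edgeR adjusted p = 0.833), with a 95% interval of -0.40 to 0.77.

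*Prkcd* was counted on 2 transcripts. NM_011103 had 5.18, 1.91 and 2.72 CPM in KO, 4.03, 3.94 and 1.58 in KO-con, 5.37, 5.36 and 2.99 in Over, and 1.95, 0.528 and 4.46 in Over-con. NM_001310682 had 1.27, 1.21 and 0.635 CPM in KO, 0.828, 0.447 and 1.21 in KO-con, 1.48, 1.45 and 2.03 in Over, and 1.02, 0.176 and 1.07 in Over-con. For NM_001310682 every Over library stood above every Over-con library, while for NM_011103 the groups overlapped. Both transcripts leaned higher in Over, by log2 fold changes of 0.86 ± 0.40 and 0.96 ± 0.43, and neither passed the test (edgeR adjusted p = 0.377 and 0.364). Over-con replicate 3 decided the first of these: without it the log2 fold change of NM_011103 was 1.73 (edgeR adjusted p = 0.00620), and the difference between the controls rose from 0.36 to 1.22 (edgeR adjusted p = 0.0444). KO against KO-con gave -0.03 ± 0.37 and 0.37 ± 0.47 (edgeR adjusted p = 0.974 and 0.695).

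*Card9*, the scaffold, had 18.9, 20.7 and 19.2 CPM in KO, 34.1, 31.9 and 31.9 in KO-con, 44.6, 44.7 and 51.7 in Over-con and 78.8, 83.2 and 88.3 in Over. The groups follow each other in this order without overlap. Relative to its own control, KO was lower by a log2 fold change of -0.73 ± 0.10 (SE) and Over higher by 0.83 ± 0.08, and KO-con was lower than Over-con by -0.52 ± 0.10. The controls differed from each other by less than each line did from its own control, and exchanging them moved both values: against Over-con, KO stood at -1.26, and against KO-con, Over stood at 1.36. These values chose the gene and are given as a description.

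**Figure D1:**
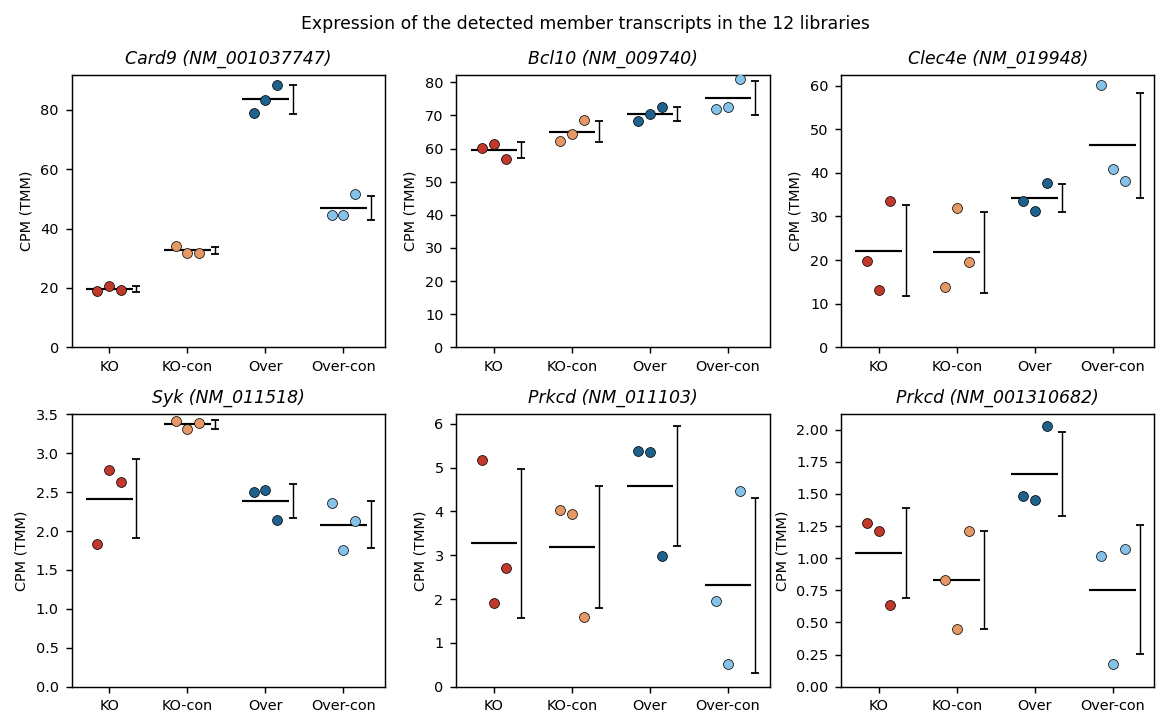
CPM (TMM-normalized over all libraries) of the 6 member transcripts that passed the filter on low counts, each panel with its own linear axis from 0. Points are the 12 libraries, horizontal lines group means and bars ± SD (n = 3). *Card9* separates the 4 groups, from 18.9 to 20.7 in KO to 78.8 to 88.3 in Over, whereas *Bcl10* stays between 56.9 and 81.1, and *Clec4e* is widely spread in KO, KO-con and Over-con.

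*Bcl10*, the filament-forming partner of CARD9, was the most even member. It had 60.3, 61.5 and 56.9 CPM in KO, 62.3, 64.3 and 68.7 in KO-con, 68.2, 70.5 and 72.4 in Over, and 72.0, 72.5 and 81.1 in Over-con. KO lay below KO-con without overlap by less than 1 CPM at the closest pair, and the neighbouring groups KO-con and Over, and Over and Over-con, overlapped. None of its differences passed the test: the log2 fold change was -0.12 ± 0.08 for KO against KO-con (edgeR adjusted p = 0.405), -0.09 ± 0.08 for Over against Over-con (edgeR adjusted p = 0.675) and -0.20 ± 0.09 for KO-con against Over-con (edgeR adjusted p = 0.121). The 95% intervals of the first 2, -0.29 to 0.06 and -0.25 to 0.07, exclude changes as large as those of *Card9* in either direction. Against Over-con, KO was lower in *Bcl10* by -0.34 (edgeR adjusted p = 0.0364).

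Ratios within a library do not depend on the scaling between libraries. Per kilobase of transcript, *Card9* had 0.286, 0.308 and 0.307 of the counts of *Bcl10* in KO, and 0.501, 0.453 and 0.424 in KO-con. In Over-con the ratio was 0.566, 0.563 and 0.582, and in Over 1.06, 1.08 and 1.11. *Card9* RNA was thus below *Bcl10* RNA in 9 libraries and above it in the 3 Over libraries, without overlap between groups. The ratio was tight within groups, with a mean of 0.300 ± 0.0126 (SD, n = 3) in KO, 0.459 ± 0.0389 in KO-con, 0.570 ± 0.0104 in Over-con and 1.08 ± 0.0295 in Over. Since *Bcl10* was nearly even, this ratio mostly restates the *Card9* values that chose the gene, and it is a description. *Clec4e* to *Bcl10* did not separate the groups and ran from 0.150 to 0.417 in KO and from 0.332 to 0.589 in Over-con. In level per kilobase, averaged over the 12 libraries, *Bcl10* came first with 38.0 CPM per kb, then *Card9* with 23.5 and *Clec4e* with 12.4.

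**Figure D2:**
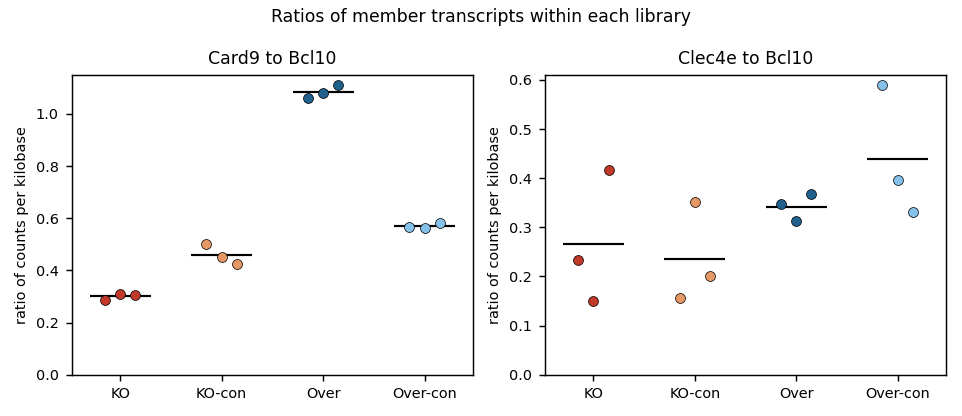
Ratio of counts per kilobase of *Card9* to *Bcl10* (left) and of *Clec4e* to *Bcl10* (right) within each of the 12 libraries, by group, on linear axes from 0. Points are libraries and lines group means. The *Card9* ratio rises from 0.300 in KO to 1.08 in Over with no overlap of groups, and the *Clec4e* ratio overlaps between KO, KO-con and Over-con. *Card9* was picked for its change, so its ratio is a description.

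Of the 9 members, 5 genes with 6 transcripts passed the filter on low counts in each comparison, and *Malt1*, *Clec7a*, *Clec4d* and *Clec4n* did not. In KO against KO-con, where 11.8% of 9457 transcripts were called at an adjusted p under 0.05, 1 of the 5 was called, *Card9*. Of the other 4, 0 were called by edgeR, DESeq2 or limma-voom, and 0 had an unadjusted p under 0.05. In Over against Over-con 1.65% of 9401 transcripts were called, and again *Card9* alone among the members. Of the other 4, 0 were called by edgeR, DESeq2 or limma-voom, and 2 (*Clec4e* and *Prkcd*) had an unadjusted p under 0.05. KO-con against Over-con had the highest background, with 16.3% of 9321 transcripts called, and 2 members, *Card9* and *Clec4e*. The difference between effects, KO against KO-con minus Over against Over-con in 1 fit of all 12 libraries, was called for 8.64% of 9903 transcripts and for *Card9* among the members. Of the other 4, 0 were called by the 3 tools and 0 had an unadjusted p under 0.05. Since *Card9* was picked for its change, its calls are no result. The median log2 fold change over the 6 member transcripts was -0.07 in KO and 0.51 in Over, against 0.01 and 0.00 over all transcripts. The high Over median comes from *Card9* and the 2 thinly counted *Prkcd* transcripts, while *Bcl10*, *Clec4e* and *Syk* stood at -0.09, -0.45 and 0.18. Because it includes *Card9*, the median is no result about the members.

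**Figure D3:**
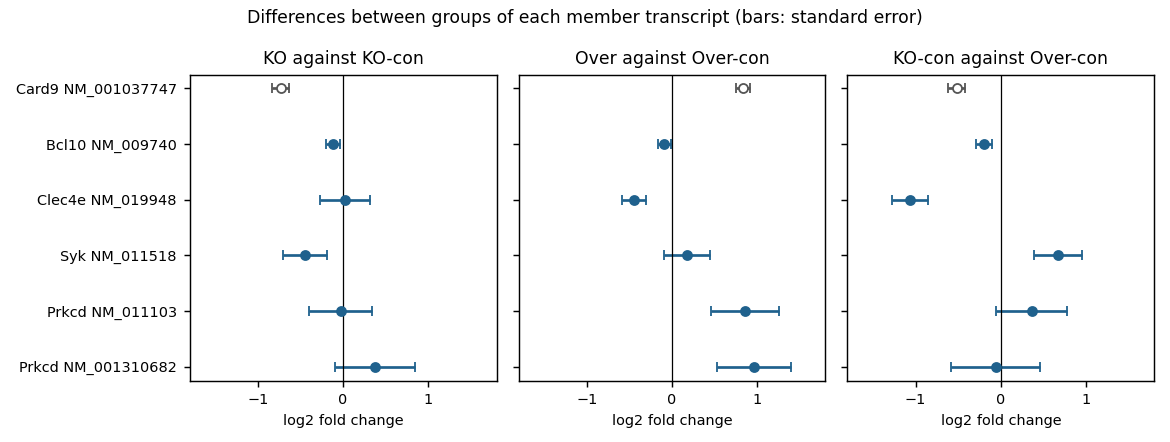
log2 fold changes of the 6 tested member transcripts in 3 comparisons, with bars for the standard error (n = 3 per group). The open symbol is *Card9*, given as a description. *Card9* lies at -0.73, 0.83 and -0.52, *Bcl10* within -0.20 to -0.09, and *Clec4e* departs from 0 most between the controls, at -1.07.

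The rest of the pathway was described with 9 lists of 85 genes in all, of which 40 were tested in KO and 41 in Over. The lists were chosen with earlier results of these data known. In KO, 5 of the 40 were higher and 4 lower, and in Over 0 of 41 were higher and 3 lower. The medians over the tested genes were 0.01 and -0.04. In KO this share of calls can be set beside the 11.8% of all transcripts, and in Over beside the 1.65%. Between KO-con and Over-con 8 of 39 were lower and 0 higher, beside 8.19% of all transcripts lower and 8.08% higher. In the difference between effects 2 of 41 were higher and 1 lower, a share near the 8.64% of all transcripts.

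Around the receptors, the adaptor gene *Fcer1g*, through which Mincle, MCL and Dectin-2 signal, was the highest of its list with 151 CPM per kb. It lay between 96.4 and 111 CPM in the 12 libraries and was not called in any comparison. *Fcgr1*, the high-affinity IgG receptor that shares this adaptor, had 188, 207 and 218 CPM in KO and 161, 149 and 163 in KO-con and rose by a log2 fold change of 0.38 ± 0.08 (edgeR adjusted p = 0.00333). It did not change in Over beyond the spread (-0.04 ± 0.06, edgeR adjusted p = 0.845), and the 2 effects differed by 0.42 ± 0.10 (edgeR adjusted p = 0.00900). Of the 8 other myeloid C-type lectins, 1 was tested in KO and 2 in Over and 0 were called by edgeR. *Clec2d* was the highest of them with 11.4 CPM per kb. The mast cell markers moved in the same direction as *Fcgr1* and the kinases described next, summing to 1151 to 1202 CPM in KO and 362.2 to 411.2 in KO-con, and *Cpa3*, a mast cell carboxypeptidase that makes up nearly all of the sum, rose by 1.55 ± 0.08 (edgeR adjusted p = 2.62e-09). *Cma1* and *Hdc*, with at most 60 and 69 counts in a library, rose by 1.79 ± 0.40 and 1.30 ± 0.36 (edgeR adjusted p = 0.00834 and 0.0267). *Mcpt2* was not called (0.71 ± 0.35, edgeR adjusted p = 0.212). The defining markers *Fcer1a* and *Tpsab1* were at 0. The part of these cells in the rises was not tested.

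The kinase list was the one with several higher genes in KO, 4 of 9 tested, beside 5.83% of all transcripts higher. *Prkcb*, a protein kinase C of B cells, had 10.7, 5.90 and 8.35 CPM in KO and 2.69, 3.13 and 2.54 in KO-con and rose by a log2 fold change of 1.55 ± 0.24 (edgeR adjusted p = 6.07e-04). It is listed with 2 transcripts. *Btk*, the Tec kinase downstream of SYK, rose by 0.31 ± 0.08 (edgeR adjusted p = 0.0188) and had the highest level of the list, 68.7 CPM per kb. *Plcg1*, a phospholipase that makes the diacylglycerol needed by the protein kinase C that *Prkcb* encodes, rose by 0.25 ± 0.07 (edgeR adjusted p = 0.0265). The fourth, *Prkcq*, the protein kinase C of T cells, rose by 0.61 ± 0.17 (edgeR adjusted p = 0.0303) and is named because it completes the count. None of the 9 was called in Over against Over-con. All 4 KO calls and that of *Fcgr1* were lost against Over-con, where the log2 fold changes were 0.31 for *Prkcb*, 0.19 for *Btk*, 0.23 for *Plcg1*, 0.29 for *Prkcq* and 0.10 for *Fcgr1*. Against KO-con, Over was also higher in *Prkcb* (0.81), *Prkcq* (0.60) and *Fcgr1* (0.23), with edgeR adjusted p = 0.00907, 0.00443 and 0.00294. *Btk* and *Plcg1* gained no such call.

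Among the other scaffolds of the family, *Card10* was the highest with 0.716 CPM per kb, and none was called in KO or Over. Of the regulators of CARD9 and BCL10, 3 of 9 were tested and 0 were called by edgeR in KO or in Over. *Otub1*, a deubiquitinase, led them with 92.3 CPM per kb.

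Between the complex and NF-kappa B, the TAK1 and IKK relay had 7 of 12 genes tested in KO and in Over, with 0 called by edgeR in either. *Ube2n*, the ubiquitin-conjugating enzyme that works with TRAF6, was its highest gene at 43.8 CPM per kb. Of the MALT1 substrates 3 of 9 were tested. *Zc3h12a*, which encodes the RNase Regnase-1, fell in KO by 0.49 on the log2 scale (SE 0.13, edgeR adjusted p = 0.0216), and *N4bp1* was the highest at 42.3 CPM per kb.

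Of 5 tested NF-kappa B subunits and inhibitors, 3 fell in KO and 0 rose, with a median log2 fold change of -0.58. Of all transcripts, 5.96% were lower and 5.83% higher in KO, and 0.883% were lower in Over. *Nfkbia*, the inhibitor I-kappa-B-alpha and itself a target of NF-kappa B, had 73.0, 79.8 and 59.9 CPM in KO and 120, 115 and 111 in KO-con, a log2 fold change of -0.69 ± 0.10 (edgeR adjusted p = 1.90e-04). *Bcl3*, an atypical I-kappa-B protein that acts in the nucleus, had 25.8, 28.0 and 22.5 CPM in KO and 43.2, 42.5 and 43.7 in KO-con, a log2 fold change of -0.75 ± 0.10 (edgeR adjusted p = 1.84e-04). For both genes the groups were far apart. *Rel*, the c-Rel subunit, fell by 0.58 on the log2 scale (SE 0.13, edgeR adjusted p = 0.0106). *Nfkb1*, which encodes the p105 precursor of p50, was the highest at 130 CPM per kb and was not called in KO or Over. In Over 1 of the 5 was called: *Nfkbia* had 96.9, 112 and 88.5 CPM against 120, 131 and 138 in Over-con and fell by 0.38 on the log2 scale (SE 0.09, edgeR adjusted p = 0.0365). The Over call of *Nfkbia* was not firm. Against Over-con the KO values were -0.87 for *Nfkbia*, -0.63 for *Bcl3* and -0.51 for *Zc3h12a*, all still called, and -0.45 for *Rel*, which was not (edgeR adjusted p = 0.108). The call of *Nfkbia* in Over was lost when either Over replicate 1 or 3 or Over-con replicate 1 or 2 was left out, with adjusted p between 0.0691 and 0.224. It was also lost with all 12 libraries in 1 fit (0.0518), with the 6 control libraries pooled (0.304) and with the replicate block (0.0863).

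No tested output gene passed the test as higher in Over. Of 5 tested cytokine and chemokine genes in Over, 2 fell and 0 rose, beside 0.883% of all transcripts lower and 0.766% higher. *Ccl2*, a chemokine that attracts monocytes, had 97.9, 105 and 89.6 CPM in Over and 168, 180 and 178 in Over-con, for a log2 fold change of -0.84 ± 0.07 (edgeR adjusted p = 8.05e-06), and was the highest gene of the list at 147 CPM per kb. *Cxcl1*, a chemokine that attracts neutrophils, had 36.1, 41.6 and 41.7 CPM in Over and 67.4, 77.4 and 57.6 in Over-con, for a log2 fold change of -0.74 ± 0.11 (edgeR adjusted p = 0.00125). Over-con stood highest of the 4 groups in both genes, and against KO-con the Over values shrank to -0.22 for *Ccl2* and -0.28 for *Cxcl1* (edgeR adjusted p = 0.0336 and 0.0395). In KO 0 of 6 tested output genes were called by edgeR, and *Cxcl1* (-0.58 ± 0.19, edgeR adjusted p = 0.0613) and *Ccl2* (-0.30 ± 0.14, edgeR adjusted p = 0.191) had an unadjusted p under 0.05. Against Over-con both were called in KO, at -1.06 for *Cxcl1* (edgeR adjusted p = 0.00451) and -0.92 for *Ccl2* (edgeR adjusted p = 7.14e-04). KO replicate 2 was the highest KO library in both genes, and without it the values were -0.88 (edgeR adjusted p = 0.0147) and -0.54 (edgeR adjusted p = 0.00772). Without KO replicate 3, *Cxcl1* was at -0.33 (edgeR adjusted p = 0.113). The fibroblast markers, whose cells can also make both chemokines, summed to 1253 to 1307 CPM in Over and 1385 to 1573 in Over-con, and their part in these differences was not tested.

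**Figure D4:**
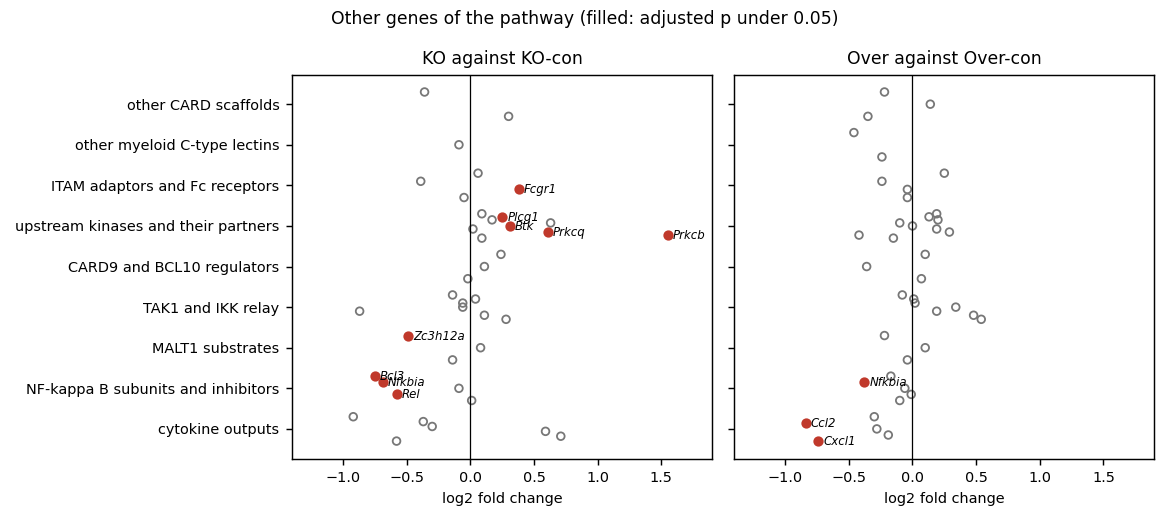
log2 fold change of every tested gene of the 9 pathway lists, in KO against KO-con (left) and Over against Over-con (right), 3 libraries per group. Each point is a transcript, and filled points with names have an adjusted p under 0.05. In KO 4 kinase genes and *Fcgr1* lie to the right and *Bcl3*, *Nfkbia*, *Rel* and *Zc3h12a* to the left, and in Over the 3 named genes lie to the left.

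The transcripts with the pattern closest to that of *Card9* were found by the root mean square difference of centred log2 CPM over the 12 libraries, among 6719 transcripts with at least 5 mean CPM. The closest were *Col12a1* (0.282), *Nanos1* (0.297), *H2-Q5* (0.344), *Ctse* (0.363) and *Slc39a4* (0.380), against a median of 0.778 over all transcripts compared. *Col12a1*, a fibril-associated collagen, had 31.3 to 38.8 CPM in KO, 60.6 to 64.3 in KO-con, 107 to 124 in Over-con and 118 to 126 in Over. *Nanos1*, an RNA-binding translational repressor, had means of 3.97, 4.87, 9.74 and 12.6 CPM in the same order. *H2-Q5* belongs to the MHC class I family, whose near-identical copies make its counts uncertain. The last 2, *Ctse* and *Slc39a4*, encode a protease and a zinc transporter. Their log2 fold changes for Over against Over-con were 0.07, 0.40, 0.23, -0.14 and -0.13, all smaller than the 0.83 of *Card9*. They were chosen for likeness across these libraries, so no test is given.

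The female germline stem cell markers summed to 79.33 to 119.5 CPM in KO, 107.6 to 134.8 in KO-con, 150.6 to 164.7 in Over-con and 151.3 to 162.8 in Over, nearly all of it *Ifitm3* and, in Over, also *Stella*. The Over sum thus includes the gene that this line was made to overexpress. *Ifitm3* alone had 79.1 to 119 CPM in KO and 106 to 133 in KO-con, which overlap. It had 150 to 164 CPM in Over-con and 119 to 133 in Over, which do not. Over was lower than Over-con in *Ifitm3* by a log2 fold change of -0.31 ± 0.07 (edgeR adjusted p = 0.0396). The mast cell markers summed to 1151 to 1202 CPM in KO, 362.2 to 411.2 in KO-con, 753.7 to 876 in Over-con and 651.9 to 687.1 in Over. The macrophage and monocyte markers summed to 44.23 to 50.42 CPM in KO, 33.39 to 39.39 in KO-con, 36.35 to 41.65 in Over-con and 49.95 to 52.13 in Over. Most of this sum was *Cd68*, which rose in KO by 0.48 ± 0.12 and in Over by 0.51 ± 0.09 (edgeR adjusted p = 0.0158 and 0.00645). *Cd14* was called in neither (-0.48 ± 0.22 and -0.20 ± 0.20, edgeR adjusted p = 0.187 and 0.742). The dendritic cell markers, mostly *Zbtb46* counts, summed to 5.681 to 7.944 CPM in KO and 6.911 to 10.92 in KO-con. They summed to 5.832 to 6.69 CPM in Over-con and 7.499 to 9.871 in Over, which do not overlap. Of the 2 *Zbtb46* transcripts, NM_028125 had a difference between effects of -1.74 ± 0.37 (edgeR adjusted p = 0.00491). NM_027656 was not called for it (-0.69 ± 0.40, edgeR adjusted p = 0.333). The neutrophil markers, nearly all of them *Cxcr2* counts, summed to 157.9 to 171 CPM in KO, 165.8 to 199.1 in KO-con, 294.6 to 348.4 in Over-con and 273.1 to 275 in Over. The fibroblast markers summed to 847.9 to 1253 CPM in KO, 970.6 to 1143 in KO-con, 1385 to 1573 in Over-con and 1253 to 1307 in Over. The part of these cell types in the *Card9* differences was not tested.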

How the data were processed

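RNA-seq of 12 FGSC libraries was used, grouped by their titles. The authors made stranded mRNA libraries, aligned reads to mm9 with HISAT2 and deposited raw counts per RefSeq transcript, without normalization. The strand setting, the annotation release and the handling of shared reads are not given in the sources used here. Symbols for 41186 of 41388 transcripts (99.5%) were taken from RefSeq's GRCm38.p6 annotation.

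Tests used edgeR 4.0.16 (TMM, filterByExpr, glmQLFit, glmQLFTest) on the counts, with p-values adjusted by Benjamini-Hochberg over every transcript tested in a comparison and a threshold of 0.05. The methods of the study name DESeq2, which was run as an alternative (1.42.0), as was limma-voom (limma 3.58.1). CPM were normalized over all 12 libraries, and levels per kilobase used the longest coding transcript of the mm9 annotation. Other alternatives were other size factors, filters, a replicate block, summing per gene, the other line's control, the 6 control libraries pooled, and leaving out each library. On simulated data with 200 changed transcripts (log2 fold change 1), 200 were recovered for KO against KO-con with 7 false calls, and 200 for Over against Over-con with 10. Smaller changes were not simulated, so this recovery does not carry over to them. In Over the thinly counted *Prkcd* transcripts were not called at 0.86 and 0.96. Floors cover counting error only.

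The members and the pathway and marker lists were chosen with earlier results of these data known. Named genes were all members, at most 3 called genes per list in KO and in Over by lowest adjusted p, the gene of each list with the highest CPM per kb, and the 5 transcripts most like *Card9*. Windows and primers were located by exact search in mm9, in R 4.3.3 and Python 3.11.15. The values of 1 gene of the pathway lists are not reported here. The other assays of the study were not analysed here.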

Additional observations from a re-analysis of the deposited data

How the results depend on the processing

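*Card9* kept its direction under every alternative run, with log2 fold changes of -1.26 to -0.69 for KO against KO-con, 0.79 to 1.36 for Over against Over-con, -0.58 to -0.45 between the controls and -1.64 to -1.52 for the difference between effects. With the other control group, *Clec4e* turned to -1.06 in KO and 0.62 in Over, and *Fcgr1* and *Prkcb* turned to 0.23 and 0.81 in Over (edgeR adjusted p = 0.00294 and 0.00907). The members called became 3 in KO and 2 in Over, and the transcripts called 737 (from 1115) and 2026 (from 155). With all 6 control libraries the transcripts called were 309 in KO and 7 in Over, and *Ccl2*, *Cxcl1* and *Nfkbia* lost their calls in Over (adjusted p = 0.304 each). A log2 fold change over 1 as well left 161 and 16 transcripts and 0 members in each. Without a filter, 3 members and 302 transcripts were called in Over (*Clec4e* adjusted p = 0.00426, *Prkcd* 0.0416). DESeq2 called 1 member between the controls instead of 2.

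Leaving out 1 library gave 1 member and 613 (without KO-con replicate 1) to 1271 transcripts in KO, with 715, 664 and 722 without KO replicate 2, KO-con replicate 2 and KO-con replicate 3. In Over it gave 1 to 3 members and 48 (without Over replicate 3) to 719 transcripts, with 55, 58, 59 and 90 without Over replicates 1 and 2 and Over-con replicates 1 and 2. The 719 transcripts and the 3 members were the values without Over-con replicate 3. Between the controls it gave 2 to 3 members and 882 (without KO-con replicate 1) to 1988 transcripts, with 998 without Over-con replicate 1. For the difference between effects it gave 1 member and 536 (without Over replicate 2) to 1126 transcripts, with 564, 541 and 556 without KO-con replicate 1, Over replicate 1 and Over-con replicate 1. In KO, the calls of *Bcl3*, *Nfkbia*, *Prkcb* and *Fcgr1* passed with each library left out, whereas *Btk*, *Plcg1*, *Prkcq*, *Zc3h12a* and *Rel* lost theirs at least once. Ranking with a floor of 20 mean CPM kept 2 of the 5 transcripts most like *Card9*, since the floor removes low transcripts. The cause of the other changes was not tested.

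Same-numbered libraries did not visibly deviate together (correlations of -0.15 to 0.06). The labels do not say whether the numbers pair the samples, and with 3 libraries per group these correlations cannot settle it. With the replicate number as a block, 837 transcripts were called in KO and 67 in Over, and 1 member in each. *Plcg1* (adjusted p = 0.0805) and *Prkcq* (0.0575) lost their calls in KO and *Cxcl1* gained one (0.0400), and *Nfkbia* lost its call in Over (0.0863). Of the tested members, *Syk* and *Prkcd* had the fewest counts, at most 37 and 89 in a library.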

Other observations

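The spread of *Clec4e* within groups was seen first, and the transcripts closest to it were then looked for in the same way as for *Card9*, a choice made after seeing the data. The closest of 6719 were *Fam110c* (0.255), *Grk5* (0.282), *Gimap5* (0.321), *Mboat4* (0.338) and *Tnfsf8* (0.346), against a median of 0.649. *Fam110c* had 29.7, 23.7 and 45.4 CPM in KO and 18.1, 37.8 and 18.3 in KO-con, so that KO replicate 3 and KO-con replicate 2 were the highest of their groups in both genes. It had 42.8, 35.9 and 40.0 CPM in Over and 99.0, 57.4 and 57.0 in Over-con, and Over-con replicate 1 was again the highest of its group. *Tnfsf8*, a ligand of the TNF family, had 23.5, 18.7 and 39.7 CPM in KO and 15.8, 21.0 and 16.2 in KO-con. *Grk5*, a kinase of G-protein-coupled receptors, had 37.1, 31.1 and 36.6 CPM in KO and 28.7, 50.3 and 33.4 in KO-con. These are values of transcripts picked for their likeness, and no test is given.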
